A study of Mus musculus with 8 samples.

Results

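The genes of MHC class II antigen presentation were examined in a map of open chromatin from mouse medullary thymic epithelial cells (mTECs). The 10 members were the chains of the classical class II molecules (H2-Ab1, H2-Aa, H2-Eb1), the chains of the peptide editors H2-M (H2-DMa, H2-DMb1, H2-DMb2) and H2-O (H2-Oa, H2-Ob), the invariant chain Cd74 and the transactivator Ciita. A region belonged to a member when it overlapped the gene body or the 10 kb on either side of it, and a region near more than 1 member was counted once, for the nearer start. This gave 36 regions of 57124 in the whole map, and the 10 members stood among 21938 protein-coding genes.

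Chromatin accessibility had been measured by ATAC-seq, in which the transposase Tn5 inserts sequencing adapters into open DNA. The cells came from the thymus of young wild-type mice (genotype wt) and were sorted after depletion of CD45-positive cells as EpCAM-positive, CDR1-negative mTECs. The 4 groups were Tspan8neg MHCIIlow, Tspan8pos MHCIIlow, Tspan8neg MHCIIhigh and Tspan8pos MHCIIhigh, with 2 biological replicates in each of them and 8 samples in all, and surface MHC class II, the product of the genes described here, was itself a sorting marker. The 8 columns of read counts carried names that matched no sample label, so no level per sample and no comparison between the MHCIIlow and MHCIIhigh groups could be made. A region of the merged map may stem from cells of any group.

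MHC class II molecules are dimers of an alpha and a beta chain that show peptides from the endosomal route to CD4 T cells, and on mTECs they serve to delete or divert self-reactive T cells. The invariant chain fills the groove until H2-M exchanges its remnant for a peptide, and H2-O restrains H2-M. Transcription of the genes for these chains depends on CIITA, the product of Ciita, a coactivator that does not bind DNA itself. It docks on a promoter module of these genes. RFX binds the module at the X box, CREB or ATF proteins at the adjoining X2 box, and NF-Y at the Y box.

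Because this module is what the promoters are known for, the stretches that carry it are shown first. The search used the letters AGNNACNGA for X and ATTGG for Y, with Y 10 to 40 bases after X on the same strand, and was run on both strands of the mm10 (GRCm38) sequence. Capitals mark the 9 letters of X and the 5 letters of Y, each sequence is written 5′ to 3′ on the strand of the pair, and 6 bases are given on either side. The first group holds an exact X.

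H2-Ab1, promoter region, chr17:34263143-34263192, plus strand: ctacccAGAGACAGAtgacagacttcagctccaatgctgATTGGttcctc
H2-Eb1, promoter region, chr17:34305769-34305818, plus strand: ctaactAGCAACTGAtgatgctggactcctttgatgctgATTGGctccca
H2-Ab1, flanking region, chr17:34261679-34261729, minus strand: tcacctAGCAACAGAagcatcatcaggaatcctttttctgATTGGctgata
H2-Eb1, flanking region at the start of H2-Eb2, chr17:34325536-34325585, plus strand: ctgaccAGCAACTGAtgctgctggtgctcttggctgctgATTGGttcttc

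The second group holds an X with 1 mismatch, counted from 1 at the first letter of X. The substitution was G2T at H2-DMb2 and G8A at both H2-Oa and H2-Ob, whose X letters were the same.

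H2-DMb2, promoter region, chr17:34145119-34145169, plus strand: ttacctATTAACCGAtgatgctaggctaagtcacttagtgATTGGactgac
H2-Ob, promoter region, chr17:34238811-34238858, plus strand: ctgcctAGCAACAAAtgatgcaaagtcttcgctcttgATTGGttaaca
H2-Oa, in no region, chr17:34092296-34092346, plus strand: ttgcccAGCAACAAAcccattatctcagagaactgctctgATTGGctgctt

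The promoter regions of H2-DMa and H2-DMb1 also held an exact pair, but inside annotated UTR, so only the matches are given. At H2-DMa X read AGCGACTGA and at H2-DMb1 it read AGTAACTGA, each followed by ATTGG after 25 bases. For H2-Aa, where no pair was found, the corresponding upstream stretch is shown with capitals for ATTGG and for the cyclic AMP response element TGACGTCA, a palindrome that was searched for only after the sequences had been seen.

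H2-Aa, promoter region, chr17:34287854-34287913, minus strand: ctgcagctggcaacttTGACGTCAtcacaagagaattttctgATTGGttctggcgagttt

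For Ciita, which is induced by interferon gamma, the stretch upstream of its most downstream group of starts is shown. Capitals mark, in order, CACGTG (an E box) and GAAANNGAA (letters of IRF sites).

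Ciita, promoter region, chr16:10489628-10489730, plus strand: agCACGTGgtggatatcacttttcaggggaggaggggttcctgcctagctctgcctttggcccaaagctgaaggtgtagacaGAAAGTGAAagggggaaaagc

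Accessible regions lay at the start of 9 of the 10 members. A promoter region was defined as a region whose centre lay no more than 1000 bases upstream and no more than 100 bases downstream of a GENCODE M21 start, and 48.6% of protein-coding genes had one. H2-Oa was the exception. Of the 36 regions, 11 were promoter regions of members (H2-DMa and H2-Eb1 had 2 each) and 25 were flanking regions. By position 20 of the flanking regions lay in introns, 2 in exons, 2 between genes and 1 at the promoter of H2-Eb2. Introns and exons of any annotated gene were counted here, so some of these regions lay outside the member itself. Of the 25 flanking regions, 9 lay upstream of the member, 13 within it and 3 downstream.

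**Figure D1:**
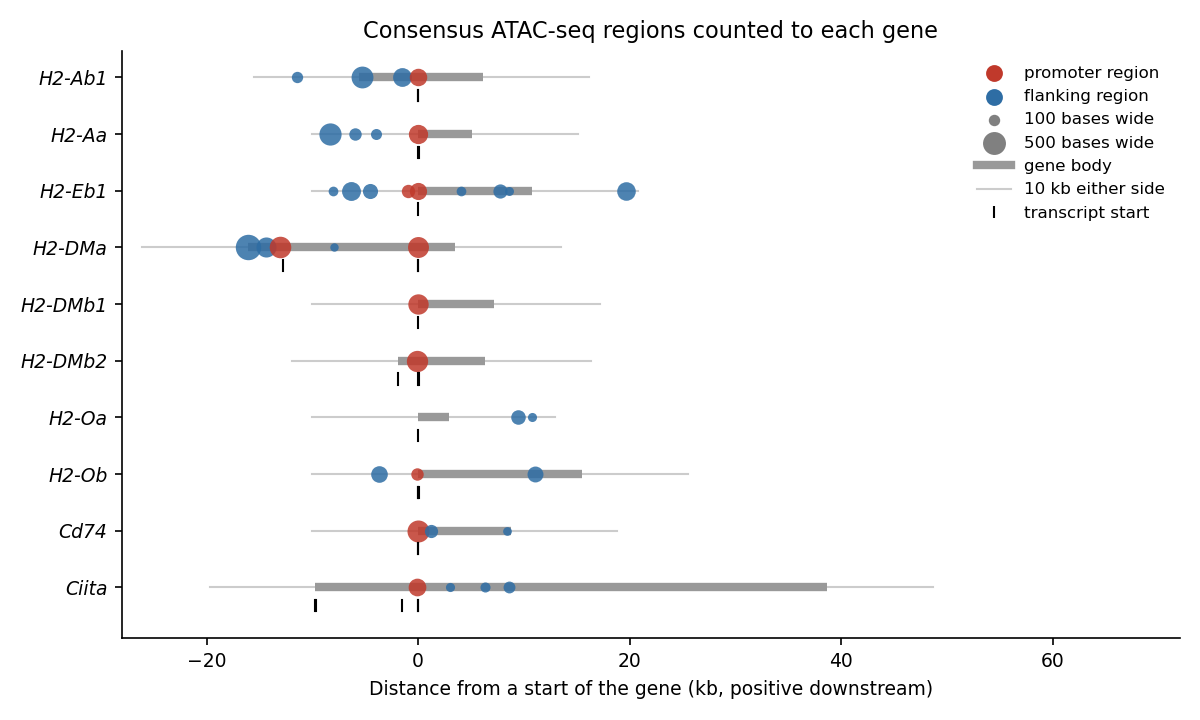
Position of the 36 regions counted to the 10 members (rows), as distance in kb from 1 start of each gene, positive downstream. Circle area follows the width of the region, red marks the 11 promoter regions and blue the 25 flanking regions, grey bars are gene bodies, thin lines the 10 kb on either side and black ticks the transcript starts. H2-Oa has no circle at its start, and the 4 regions of Ciita begin only at its most downstream starts.

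The classical chains came with several regions each. H2-Ab1 (chr17:34257689-34269419, plus strand) encodes the beta chain of I-A, the only classical class II dimer that the C57BL/6 haplotype puts on the surface. Its promoter region (chr17:34263084-34263435) was 352 bases wide with its centre 9 bases from a start, and 3 flanking regions lay 1519, 5280 and 11370 bases upstream of a start. These were 407, 551 and 148 bases wide, so 2 of them were wider than the promoter region itself. The regions of 407 and 551 bases lay within the annotated gene body, upstream of the transcript starts used. That of 551 bases covered the first base of the gene body, 34257689, where the transcript set used has no start. The region at 1519 bases carried an exact X and Y pair on the strand opposite to the gene.

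H2-Aa (chr17:34282744-34287823, minus strand), the alpha chain of I-A, is transcribed towards H2-Ab1. Its promoter region (chr17:34287665-34288091) was 427 bases wide and centred 55 bases upstream of the start. The 3 flanking regions, at 3946, 5943 and 8359 bases upstream, were 140, 178 and 569 bases wide. Between the promoter regions of H2-Ab1 and H2-Aa, across both gene bodies from their starts on, the map held no region for 24229 bases (chr17:34263436-34287664), the longest gap in the class II cluster.

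H2-Eb1 (chr17:34305867-34316674, plus strand), the beta chain of I-E, had the most regions of any member, with 9 counted to it and 10 in its span. A region of 340 bases (chr17:34305672-34306011) was centred 26 bases upstream of its start and a second of 206 bases (chr17:34304816-34305021) 949 bases upstream. Further upstream, regions of 262, 411 and 109 bases were centred 4549, 6319 and 8057 bases away. Within the gene, regions of 108, 233 and 93 bases stood 4057, 7697 and 8594 bases downstream of the start. The ninth, of 398 bases and 19689 bases downstream, was centred 109 bases upstream of the start of H2-Eb2, a class II beta chain relative, and belongs to that gene by its position. H2-Ea-ps, the pseudogene left of the E alpha chain in this haplotype, had no region within 1000 bases of its starts, the nearest centre being 3189 bases away.

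The H2-M genes, which encode the peptide exchanger, had promoter regions wider than those of all other members except Cd74. H2-DMa (chr17:34119541-34139101, plus strand) had a region of 505 bases (chr17:34135332-34135836) centred 44 bases upstream of its downstream start group, and another of 535 bases (chr17:34122284-34122818) 281 bases upstream of the start at 34122832. This second region was centred 49 bases from the start of Brd2, a bromodomain gene read in the opposite direction. The 2 regions beyond it, 745 and 464 bases wide, also lay nearest to Brd2 by the coding starts used. The region of 745 bases nevertheless covered the first base of the annotated H2-DMa gene body, 34119541, where the transcript set used has no start. A last region of 82 bases lay 4815 bases inside.

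H2-DMb2 (chr17:34143307-34151555) and H2-DMb1 (chr17:34153072-34160230), neighbouring copies of the beta chain gene on the plus strand, had 1 region each and none in the flanks that was nearer to them. The H2-DMb2 region (chr17:34144823-34145344) was 522 bases wide and centred 153 bases upstream of a start, while the start at 34143307, further upstream, had no promoter region. The H2-DMb1 region (chr17:34152803-34153279) was 477 bases wide and centred 31 bases upstream. Since reads that mapped to more than 1 place had been removed, it was counted how many of the words of 31 bases in each region occur once in the assembled chromosomes. This share was 86.8% for the H2-DMb2 region, the lowest of all 36, and 94.2% for the H2-DMb1 region, while 32 of the 36 regions were at 100%. In the 500 bases on either side of a start it was 70.1% at H2-DMb1, the lowest around any member start. At H2-DMb2 it was 94.3% around the start at 34143307, and 76.2% and 78.9% around the others. The paper's ATAC-seq reads were paired and longer than 31 bases, so these shares are not the share of reads that could be placed. Whether further regions were missed there was not tested.

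The 2 chains of H2-O, the restrainer of H2-M, differed in their starts. H2-Ob (chr17:34238903-34254414, plus strand) had a promoter region of 178 bases (chr17:34238746-34238923), the narrowest of the 11, centred 69 bases upstream of a start. It also had a region of 319 bases 3723 bases upstream and one of 292 bases 11033 bases inside the gene. H2-Oa (chr17:34092340-34095234, plus strand) had no region within 1000 bases of its only start. Its 2 regions, of 244 and 95 bases, lay downstream of the gene, at 9415 and 10715 bases from the start. All words of 31 bases in the 500 bases on either side of this start occur once in the genome. The absence of a region says that the merged map holds no peak there and gives no level of accessibility.

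Cd74 (chr18:60803848-60812652, plus strand), the invariant chain, had the widest promoter region of the members, 558 bases, centred 54 bases upstream of a start. A region of 201 bases lay in an intron 1201 bases downstream, and another, of 88 bases, 8345 bases downstream over the last part of the gene, where the annotation also places Mir5107. Among the regions counted to members, its promoter region was the only one outside chromosome 17 with a share of unique words below 100%, at 95.3%.

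Ciita (chr16:10480059-10528418, plus strand) is known to be read from alternative promoters, an upstream one used in dendritic cells (pI), a middle one in lymphocytes (pIII) and a downstream one that responds to interferon gamma and serves the thymic epithelium (pIV). The annotation gave 5 starts in the same order. The starts at 10480059 and 10480164 had no promoter region, with the nearest centre 9607 and 9502 bases away, and neither had the start at 10488279, at 1387 bases. The pair of starts at 10489781 and 10489783 had a region of 361 bases (chr16:10489486-10489846), centred 115 bases upstream of the first. Around the upstream starts at least 98.2% of the words of 31 bases were unique. The other 3 regions of Ciita were narrow, 96, 117 and 162 bases, in the intron 2984, 6322 and 8541 bases downstream of the last start.

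The number of regions was set against the length of the members. All 10 had at least 1 region in the gene body or its flanks, as had 77.7% of protein-coding genes. Per 10 kb of gene body and flanks, H2-Eb1 had 3.25 regions, more than 99.9% of protein-coding genes. H2-Aa had 1.99, H2-Ob 1.97, H2-Ab1 1.58 and H2-DMa 1.52 regions per 10 kb, which was more than 98.8%, 98.7%, 96.3% and 95.8% of genes. H2-DMb2 with 1.06, Cd74 with 1.04, H2-Oa with 0.874 and H2-DMb1 with 0.736 stood between 74.3% and 87.8%. Ciita, the longest member, was lowest with 0.585, above 65.9% of genes. By the share of gene body and flanks that regions covered, H2-Eb1 was again highest with 8.86%, above 99.2% of genes, but H2-Oa with 1.48% and Ciita with 1.08% were above only 51.4% and 42.5%. These densities share regions, because 10 of the 36 regions lay in the span of 2 or more members.

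**Figure D2:**
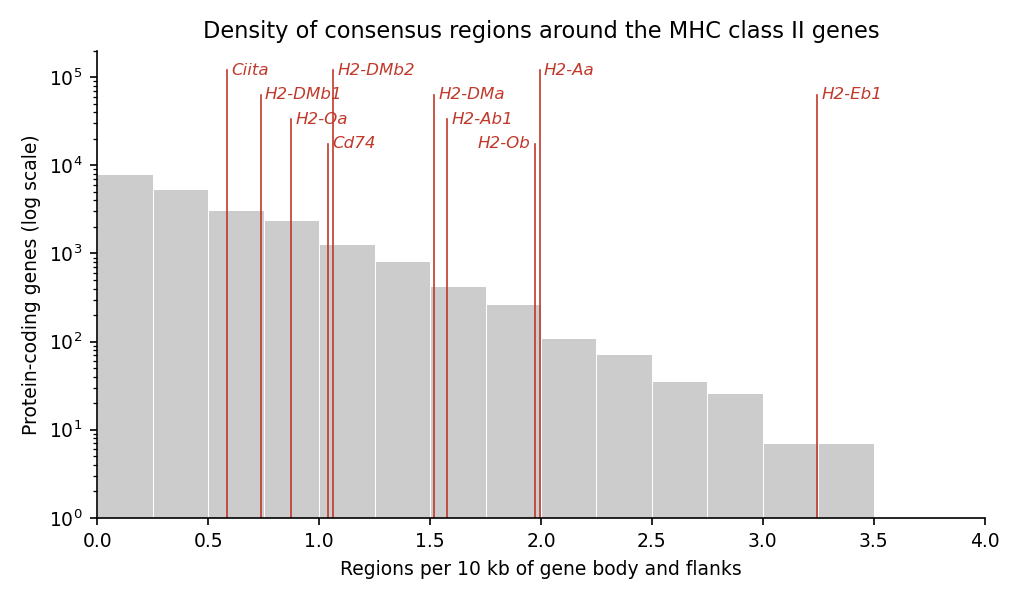
Number of consensus regions per 10 kb of gene body and 10 kb flanks (x axis) for protein-coding genes (grey bars, number of genes on a log axis), with the 10 members as red lines whose height has no meaning. Ciita is lowest at 0.585 and H2-Eb1 highest at 3.25, and H2-Ob and H2-Aa lie next to each other at 1.97 and 1.99.

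The 8 members on chromosome 17 form a cluster of 244 kb with their flanks (chr17:34082340-34326674). It held 37 regions, 29 of them counted to members and the other 8 nearest to Tap1, Psmb8 or Tap2, the transporter and immunoproteasome genes of MHC class I presentation that lie among the class II genes. This was 151 regions per Mb, against 26.0 per Mb over all of chromosome 17. When the autosomes were cut into 9714 tiles of the same length, the median tile held 4 regions, the fullest held 34 and 0 tiles held as many as the cluster. The cluster was laid around chosen genes and the tiles were not, and gene density was not matched between them.

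The outermost regions inside the 10 kb limit of any member were 9933 bases from H2-Aa, 9401 bases from H2-Eb1 and 8684 bases from H2-Eb1. The region at 9933 bases was counted to H2-Eb1, 8003 bases from its gene body. That at 9401 bases was counted to H2-Aa, 8075 bases from its gene body. The nearest left outside were 10686 bases from H2-DMb1, 12433 bases from H2-Oa and 14358 bases from Ciita.

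The promoter regions of the members were low in GC and CpG compared with promoter regions at large. Their median width was 427 bases, beside 482 bases over all 12501 promoter regions in the map, but their median GC content was 53.0% beside 64.6%. The ratio of observed to expected CpG was 0.211 in the median, beside 0.768. Over the 44623 regions outside promoters the medians were 52.0% and 0.254, and over the 25 flanking regions of the members they were 54.3% and 0.222, with a median width of 201 bases beside 176 bases. In base composition the medians of the member promoter regions were nearer to those of regions outside promoters.

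Single members spread around these medians. The region at the start of H2-Ob had a GC content of 41.6%, which only 0.752% of promoter regions were below. The regions of H2-DMb2 and H2-DMb1 had 48.9% and 49.1%, the pair at H2-Eb1 45.6% and 50.3%, Cd74 53.0% and H2-Aa 53.4%. Ciita with 55.7%, H2-Ab1 with 56.3% and the downstream region of H2-DMa with 58.6% were the highest of the regions that no other coding gene shared. The region that H2-DMa shares with Brd2 stood apart. Its GC content of 72.9% was higher than that of 86.3% of promoter regions. Its CpG ratio of 0.760 was close to the median of all promoter regions. The region at the start of H2-Eb1 held no CpG at all.

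**Figure D3:**
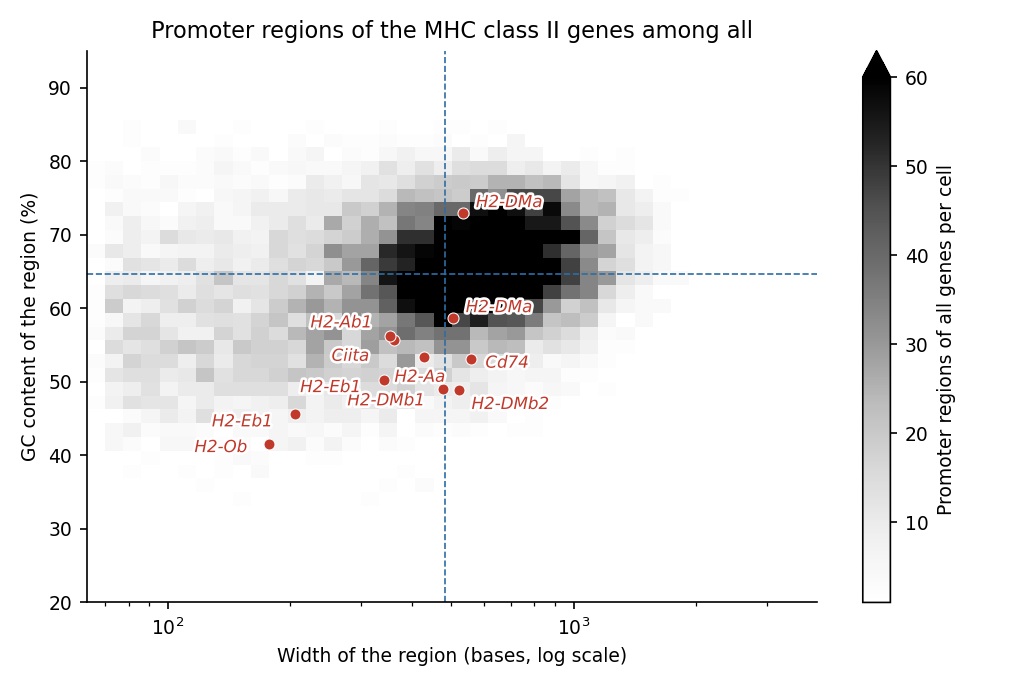
Width (x axis, bases, log scale) and GC content (y axis, percent) of the 12501 promoter regions of all genes (grey, number of regions per cell) and of the 11 of the members (red points). Dashed lines mark the medians of all promoter regions, 482 bases and 64.6%, and 10 of the 11 red points lie below the GC line, the exception being the H2-DMa region at 72.9% that Brd2 shares.

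Exact X and Y pairs were counted against all genes and all regions. An exact pair stood in the start window, from 250 bases before to 50 bases after a start, of 3 of the 10 members (H2-Ab1, H2-Eb1 and H2-DMa), and in 0.67% of protein-coding genes. Over the regions themselves, 6 of the 36 held an exact pair, beside 0.425% of all regions. With up to 1 mismatch in X the count in start windows was 6 of 10, the added members being H2-DMb2, H2-Oa and H2-Ob, but 9.22% of protein-coding genes then had a pair as well. X alone was found in 22.5% and Y alone in 46.6% of protein-coding genes, and in 7 and 9 of the 10 members.

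The spacing was narrow. H2-Ab1 and H2-Eb1 had 24 bases between X and Y, H2-DMa, H2-DMb1, H2-DMb2 and H2-Oa had 25, and H2-Ob had 22. Limited to gaps of 22 to 25 bases, a limit taken from the members after their sequences had been seen, the exact pair was left in 38 regions of the whole map, and all 6 of the member regions were among them. Of these 38 regions, 8 lay in or within 100 kb of the class II cluster. One of them, 240 bases wide, stood 12433 bases from H2-Oa (chr17:34079668-34079907), just beyond the 10 kb limit.

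The pairs lay close upstream of the starts. X began 60 bases upstream of the first start of H2-Ab1, 92 bases upstream at H2-Eb1 and 115 bases upstream of the downstream start group of H2-DMa. Its first base was at -111 at H2-DMb2, at -86 at H2-Ob and at -38 at H2-Oa, counted from the start. At H2-DMb1 it was 24 bases downstream of the annotated start, so its Y lay past the window and the pair was counted only in the region. Of the 10 pairs found in all with at most 1 mismatch, which include a second one at H2-Eb1 with A9G on the other strand, 8 were on the strand of the member and 6 were followed directly by TGA, the first letters of the cyclic AMP response element that X2 resembles. Those 6 were the pairs in the promoter regions of H2-Ab1, H2-Eb1, H2-DMa, H2-DMb1, H2-DMb2 and H2-Ob. The pair of H2-Oa was followed by CCC. No share over all genes stands beside these counts of strand and of TGA, and TGA was counted after the sequences had been seen. Each of these pairs but that of H2-Oa lay inside a region. The search covered only the start windows and the regions, so pairs found by searching a region could not lie outside one. Windows of 500 bases upstream added a pair at Ciita, and no region of Ciita held a pair.

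**Figure D4:**
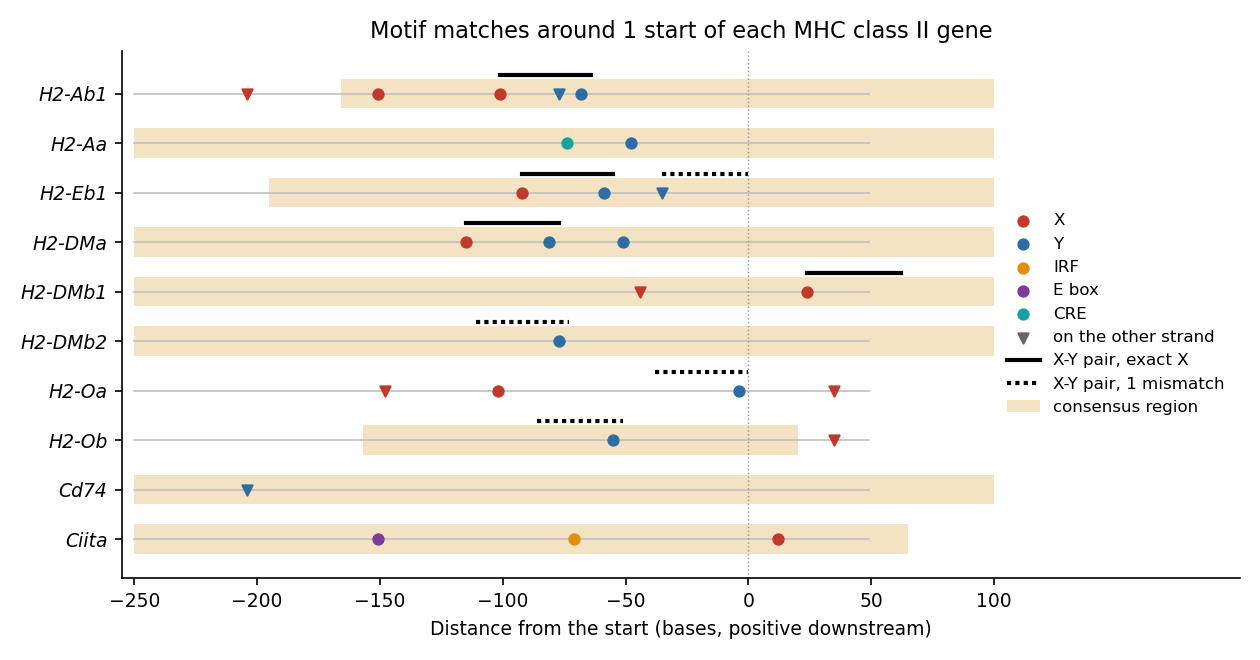
Motif matches from 250 bases upstream to 50 bases downstream of 1 start of each of the 10 members (rows), with position in bases on the x axis, circles for matches on the strand of the gene and triangles for the other strand. Beige bars are consensus regions and black bars X and Y pairs (dotted with 1 mismatch in X, whose X then has no symbol). The pair of H2-Oa is the only one outside a region, and Ciita shows E box and IRF letters inside its region.

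H2-Aa, Cd74 and Ciita had no pair in their start windows or regions, even with 1 mismatch. The search allowed at most 1 mismatch in X and none in Y, so a module with more divergent letters would not have been found. The lack of a match therefore does not show that these promoters lack the module. At H2-Aa the Y letters stood 48 bases upstream of the outer start, and the palindrome TGACGTCA 74 bases upstream. This palindrome was in the start windows of 1 of the 10 members and of 2.91% of protein-coding genes, and in 3 of the 36 regions, beside 1.68% of all regions. At Cd74 the window held no X and a Y only on the other strand, 204 bases upstream.

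At Ciita an E box and IRF letters stood within the same region. The E box began 151 bases and the IRF letters 71 bases upstream of the start at 10489781. The IRF letters were found in the start windows of 12.3% and the E box of 9.94% of protein-coding genes. With 1 of 10 members, Ciita itself, each share was near that of all genes. Over the regions, 3 of the 36 held the E box and 3 the IRF letters, in each case 2 of them promoter regions of members, beside 7.94% and 6.90% of all regions. The matches did not overlap each other, and the letters were searched on both strands, of which CACGTG reads the same on each. Neither motif stood in the windows of the upstream starts of Ciita. Such matches describe the letters and show no binding.

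The genes around the pathway had regions at their starts to different degrees. Of 22 genes listed with it, 13 had a promoter region (59.1%, beside 48.6% of all coding genes). Among the regulators this was 5 of 7, with Rfx5, Rfxap and Rfxank, the subunits of RFX, all included. Nfya and Nfyb, subunits of NF-Y, missed the definition because the centres of regions of 1268 and 642 bases lay 116 and 155 bases from the start. Of the inducers of Ciita 4 of 6 had a promoter region, Irf1 among them. For the receptor chain Ifngr2 and the kinase Jak1 the nearest centres were 114 and 207 bases downstream, past the same limit.

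Of the 9 genes of traffic and processing 4 had one. Ctsl, the cathepsin known to trim the invariant chain in cortical thymic epithelium, had a region of 839 bases centred 40 bases from its start. Ctss, the cathepsin that does so in dendritic and B cells, had none, and the nearest centre was 14621 bases away. March1, a ubiquitin ligase that removes class II molecules from the surface, also had none within 1000 bases, the nearest being 3701 bases away, and its relative March8 had one of 630 bases. Ctsb, Sppl2a and Cd83 had a region whose centre was 225, 260 and 415 bases downstream of the start.

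When it sufficed that a region reached to within 1000 bases of a start, 20 of the 22 genes and again 9 of the 10 members had a region, beside 63.1% of protein-coding genes. The 2 genes that lacked one were Ctss and March1, and the member was H2-Oa. Of 7 neighbours in or beside the cluster 4 had a promoter region and 6 had a region within 1000 bases. The exception, H2-Ea-ps, lies just beyond the cluster. The promoter regions of Brd2 and H2-Eb2 are also the ones counted to H2-DMa and H2-Eb1.

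The labelled cell type was checked against its markers. All 8 markers of thymic epithelium (Epcam, Foxn1, Krt5, Krt14, Krt8, Cldn3, Cldn4 and Aire) had a promoter region. Of 14 markers of dendritic cells, B cells, macrophages and thymocytes, of which the first 3 cell types also carry MHC class II, 0 had one. Within 1000 bases of a start 3 of these 14 had a region, namely Flt3, Zbtb46 and Cd79a. Their centres lay 120, 104 and 239 bases downstream of the start, past the downstream limit of the promoter definition. The regions of Flt3 and Zbtb46, 322 and 1164 bases wide, covered the start itself, and that of Cd79a did not. The count of 0 therefore depends on that limit. Ptprc, which encodes CD45, the target of the depletion, had its nearest centre 13012 bases away. As the read counts were not used, a share of other cells in the sorted samples was not tested.

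**Figure D5:**
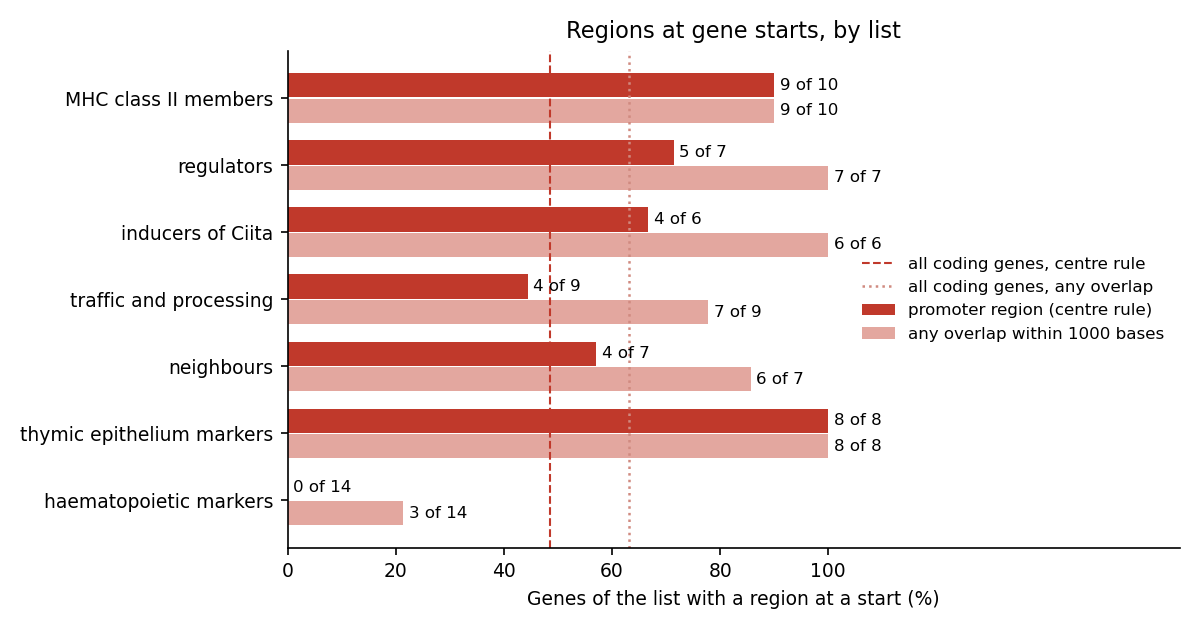
Percent of the genes of each list (rows) with a region at a start, by the centre of the region (dark bars) or by any overlap within 1000 bases (light bars), with the count at the end of each bar. The lines give the same shares for all protein-coding genes, 48.6% (dashed) and 63.1% (dotted), and the members reach 9 of 10 by either rule while the haematopoietic markers reach 0 and 3 of 14.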

How the data were processed

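The deposited table covers 8 ATAC-seq samples in 4 groups. Reads were aligned by the authors to mm10 with Bowtie2, filtered for mitochondrial, multimapping and low-quality reads with SAMtools and for duplicates with Picard, and broad peaks called with MACS2 were merged with bedtools. The sources do not say if peak calling was done sample by sample or on pooled reads. Per the file headers, reads over the merged regions were counted with featureCounts 2.0.3. The deposited values used here were the start, end and width of each region in bases, which belong to no sample, so no replicate error or depth applies. The 8 count columns match no sample label and were not used in any step, so the depth of the samples is not analysed here.

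Regions were assigned by coordinates to GENCODE M21 basic genes in Python 3.11.15 with numpy 2.4.6, and figures were drawn with matplotlib 3.10.9. Merging and peak calling set the widths and can join neighbouring peaks. Sequences came from the RefSeq copy of GRCm38, and 0 regions ran past a chromosome end. The pair search was tested on simulated sequences. No test was run, since the map has no replicates. Shares over all protein-coding genes or all regions stand beside the counts, but not beside those of strand and of TGA after X. Percentiles are the percent of genes or regions with a lower value. All 10 members are named, and other genes of the lists where they lack a promoter region or a result refers to them. The members and lists were chosen with earlier results of these data known, and the TGACGTCA search, the TGA count and the gap of 22 to 25 bases were added after the sequences were seen. One gene of the lists and the motif tied to it are not reported here, although the gene is part of the counts.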

Additional observations from a re-analysis of the deposited data

How the results depend on the processing

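The 3 counts on the members (regions, members with a promoter region, members with an exact X and Y pair) were recomputed under 13 alternatives, of which 11 stayed within 1.5 times the reported count. The number of member regions was 36, and 23 when regions under 200 bases were left out. It was 29 with flanks of 5 kb, 47 with flanks of 25 kb and 36 with the comprehensive transcripts. The count of members with a promoter region stayed at 9 under 4 of 5 alternatives, each time without H2-Oa, and was 8 with regions of at least 200 bases, where H2-Ob also dropped out. The count of members with a pair was 3, and 6 with up to 1 mismatch in X. It was 4 with windows of 500 bases upstream (with Ciita added, 1.15% of protein-coding genes), 4 with any gap (with H2-Oa added, 2.89%) and 2 in the RefSeq windows (H2-Eb1 and H2-DMb1), which matched 7 of the 10 members and in which 0.455% of 27025 genes had a pair. No paired analysis was possible because no count column could be tied to a sample, and leaving out a replicate could not be done for the same reason. The map shows where peaks were called and gives neither levels nor differences between MHCIIlow and MHCIIhigh cells.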
